A study of Homo sapiens with 9 samples.

Results

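Zinc finger genes named ZNF followed by a number are described here in H1, an established embryonic stem cell line. The 169 genes are protein-coding, have names made of ZNF and digits with at most 1 added letter, and average at least 200 normalized counts over the 9 libraries. They were drawn from 509 ZNF-named coding genes among 60829 rows. The genes were selected on that mean level, which uses the libraries of both groups, so their levels are a description. ZNF717, ZNF667, ZNF439 and ZNF521 were left out of the choice, and of these only ZNF521, with a mean of 203, reaches the level. The assay was RNA-seq of rRNA-depleted total RNA. The 5 chrX-KO libraries come from a clone whose genotype is given as knock out of HERVHlin on chromosome X, and the 4 chrX-ctrl libraries come from a control clone whose genotype is given as WT. HERVH denotes endogenous retroviruses, remnants of ancient infections, which human pluripotent cells transcribe. The libraries of a group are sequential passages of 1 clone in mTESR medium on vitronectin, which the design text treats like technical replicates while the titles call them biological replicates. Each p-value therefore measures the spread between passages and not between clones. A treatment label calls all samples differentiated cells.

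Most ZNF genes encode proteins with arrays of C2H2 zinc fingers, which bind DNA one finger after another. Many also carry a KRAB domain, which recruits TRIM28 and through it SETDB1, HP1 proteins and histone deacetylases, and these proteins silence transposable elements, endogenous retroviruses included. The KRAB zinc finger genes lie mostly in clusters of related copies on chromosome 19, and embryonic stem cells are known to express many of them. Other ZNF genes encode general promoter factors, chromatin cofactors or RNA-binding proteins.

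Of the 3 rows that the authors marked as knocked out, limma called 2 lower. One averaged 57.5 ± 18.4 normalized counts in chrX-KO and 2699.5 ± 1198 in chrX-ctrl (SD, n = 5 and 4, here and below), and the other 116 ± 35.9 in chrX-KO and 698 ± 299 in chrX-ctrl. The third, at 1452 ± 307 in chrX-KO and 2403 ± 841 in chrX-ctrl, was not called (limma adjusted p = 0.436). Recovered reads, summed over all rows, numbered 19838682 to 31192630 per library. All 10 markers of pluripotent stem cells averaged over 50 normalized counts, with sums of 36075 to 53136 in chrX-KO libraries and 41616 to 84474 in chrX-ctrl libraries. No marker of mesendoderm and mesoderm (0 of 6) or endoderm (0 of 5) reached that level, and sums of those lists stayed at or under 51.6 in chrX-KO and 149 in chrX-ctrl. Neural markers reached it for 2 of 6, led by NES, and fibroblast markers for 4 of 7, led by THY1, with summed fibroblast levels of 2937 to 4626 in chrX-KO and 3358 to 6008 in chrX-ctrl. Markers of trophectoderm and amnion reached it for 1 of 5 (KRT7). No marker of any of these lists passed limma's test at an adjusted p of 0.05. In chrX-ctrl replicate 3, protein-coding rows took 50.8% of reads, the largest share, against 26.3% to 47.5% in chrX-KO and 27.5% to 42.3% in the other chrX-ctrl libraries. Values without this library are added beside many of the group medians, the summed level and the genes for which its value weighs most. Medians without such a value are given for all 9 libraries only.

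As a group the 169 ZNF genes kept nearly the same level in both clones. Their median log2 fold change, chrX-KO over chrX-ctrl, was -0.06, with 103 genes negative and 66 positive. The quartiles lay at -0.19 and 0.11, and 123 genes (72.8%) lay within 0.25 of no change. More than 0.5 from no change stood 8.28% of the genes, 10 lower and 4 higher. In bulk RNA, fewer cells that express a gene and less of its RNA per cell cannot be told apart.

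**Figure D1:**
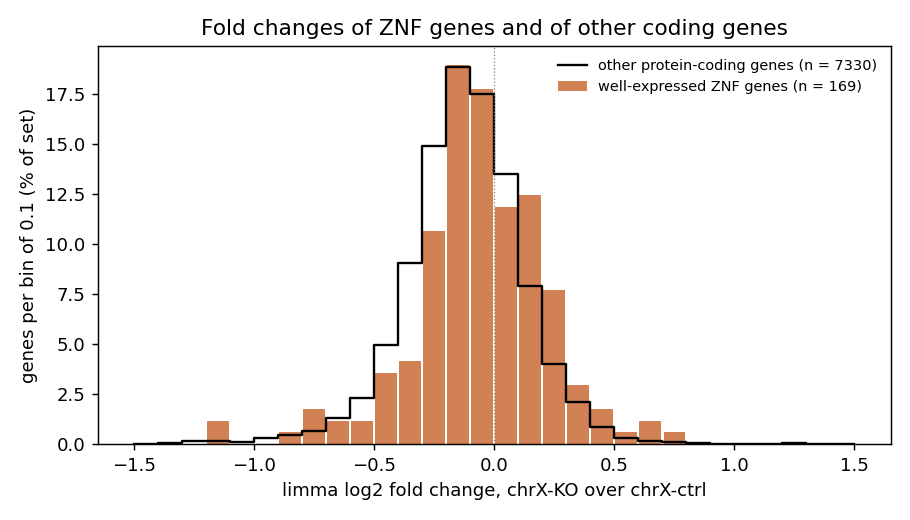
Limma log2 fold changes, chrX-KO over chrX-ctrl, on the x axis in bins of 0.1, with the share of each set in percent on the y axis; bars are the 169 ZNF genes and the line is 7330 other protein-coding genes with a mean of at least 200. Both sets peak in the bin from -0.2 to -0.1, and the bars reach from -1.11 for ZNF649 to 0.77 for ZNF562.

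The 7330 other protein-coding genes with a mean of at least 200 had a median of -0.12 and 68.2% within 0.25 of no change. Their means reach 97708 normalized counts, against 3213 for the ZNF genes, and the sets were not matched by level. The median over all 27777 tested rows was 0.01. The ZNF median was thus 0.06 above that of the other coding genes. The same difference, taken library by library, had a pooled SD of 0.16 between passages of a group. The sign of the ZNF median turned under quantile normalization (0.052, with 71 genes negative) and with protein-coding totals made equal (0.14, with 39 negative), where the median of all rows moved to 0.21. Without chrX-ctrl replicate 3 it was 0.01, and the difference from other coding genes became -0.02. The histogram of fold changes shows both distributions on 1 scale.

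Summed over the 169 genes, chrX-KO libraries held 79004 ± 4128 normalized counts and chrX-ctrl libraries 83293 ± 7921 (SD, n = 5 and 4). As a share of all protein-coding signal this was 0.928% ± 0.0812 in chrX-KO and 0.855% ± 0.143 in chrX-ctrl. Without replicate 3, chrX-ctrl had a sum of 80284 ± 6307 and a share of 0.921% ± 0.0634 (SD, n = 3). The share was 0.978%, 0.904%, 0.799%, 1.01% and 0.955% in chrX-KO replicates 1 to 5. In chrX-ctrl replicates 1 to 4 it was 0.927%, 0.855%, 0.656% and 0.982%. The groups overlapped, and chrX-ctrl replicate 3 held the smallest share although 61 of the 169 genes had their highest value there. In that library the median ZNF gene stood 0.14 above its own mean on the log2 scale and the median of other coding genes stood 0.51 above theirs.

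**Figure D2:**
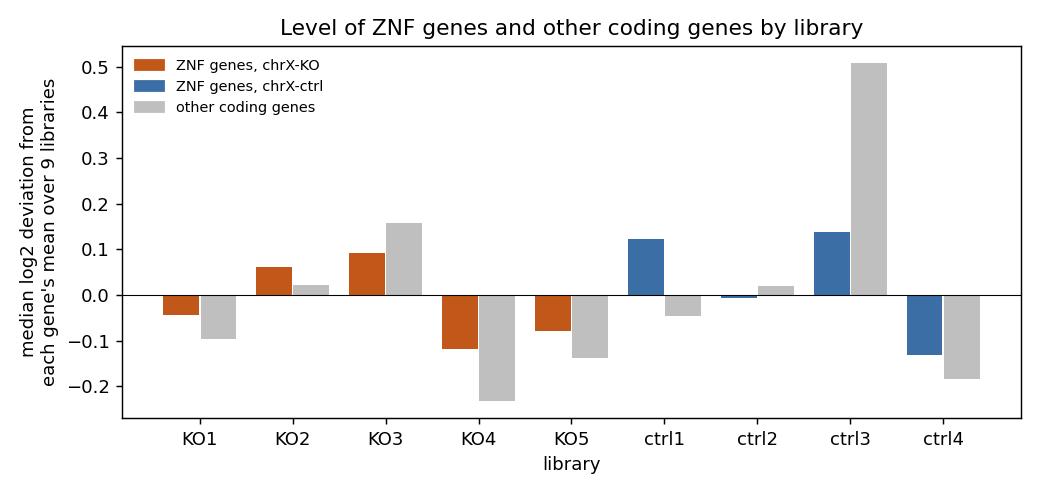
Median log2 deviation from each gene's mean over the 9 libraries on the y axis, for each library on the x axis; coloured bars are the 169 ZNF genes and grey bars are other coding genes with a mean of at least 200. ZNF genes and other coding genes stand furthest apart in chrX-ctrl replicate 3, at 0.14 and 0.51.

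The median coefficient of variation was 13.3% in chrX-KO and 18.2% in chrX-ctrl, and 15.4% in chrX-ctrl without replicate 3. The plot of library medians shows chrX-ctrl replicate 3 apart from the rest.

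The highest means were those of ZNF207, a spindle and kinetochore protein, with 3301 ± 283 in chrX-KO and 3103 ± 567 in chrX-ctrl, and ZNF638, which silences unintegrated retroviral DNA with the HUSH complex, with 2937 ± 442 in chrX-KO and 2613 ± 513 in chrX-ctrl (normalized counts, SD, n = 5 and 4 here and below). ZNF146, whose protein consists of zinc fingers alone, averaged 1889 ± 312 in chrX-KO and 2214 ± 469 in chrX-ctrl. ZNF532 averaged 1908 ± 132 in chrX-KO and 1973 ± 334 in chrX-ctrl, ZNF121 averaged 1435 ± 225 in chrX-KO and 1594 ± 326 in chrX-ctrl, and ZNF721 averaged 1292 ± 189 in chrX-KO and 1546 ± 184 in chrX-ctrl. The groups of all 6 genes overlapped. Per kilobase of exon, the mean level of ZNF146 was the highest of the 169, at 490.4 normalized counts, against 203 for ZNF207 and 224 for ZNF638. At the lower edge, ZNF780B (mean 200.2) and ZNF280C (200.6) stood just inside the level and ZNF20 (197.9) and ZNF480 (195.4) just outside it.

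Limma called 1 of the 169 genes, ZNF649, which was lower in chrX-KO (0.592% of the ZNF genes, limma with Benjamini-Hochberg adjustment over all tested rows). The background was 0.54% of all tested rows (0.425% lower, 0.115% higher). It was 0.232% of other coding genes with a mean of at least 200 (0.177% lower, 0.0546% higher). At an unadjusted limma p under 0.05 stood 22 ZNF genes (13%), 14 lower and 8 higher, beside 8.63% of all rows and 6.78% of other coding genes. The libraries of both groups did not overlap for 12 ZNF genes (7.1%), beside 3.95% of all rows and 2.86% of other coding genes. Of these 12, 9 were lower (5.33%, beside 2.6% of all rows and 2.2% of coding genes) and 3 higher (1.78%, beside 1.35% and 0.668%). The authors' deposited table called 10 ZNF genes (5.92%), against 2.05% of its 38063 rows with an adjusted p and 2.1% of other coding genes. Of these, 8 were lower in the authors' deposited table (4.73%, beside 1.53% and 1.79%) and 2 higher (1.18%, beside 0.525% and 0.314%). All 10 carry the authors' mark for defence genes. That mark stands on 33 rows, each with a deposited adjusted p under 0.05, and 29 of them are the ZNF-named coding rows that the deposited table calls, so the mark follows the calls made on these samples and is no independent evidence.

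ZNF649 (ENSG00000198093.11, GENCODE 29 on GRCh38, minus strand of chr19:51889224-51905040) encodes a KRAB zinc finger protein reported to bind LINE-1 sequences. It had 306, 219.9, 242, 237 and 264 normalized counts in chrX-KO replicates 1 to 5, against 680.0, 502, 641 and 406 in chrX-ctrl replicates 1 to 4. Every chrX-KO library lay under every chrX-ctrl library. This gave a log2 fold change of -1.11 (SE 0.18, limma adjusted p = 0.031). The call was lost with the replicate number as a block, in which the unpaired chrX-KO replicate 5 has no weight (-1.13, limma adjusted p = 0.090), and with equal protein-coding totals (-0.91, limma adjusted p = 0.119). It held when chrX-ctrl replicate 4 or chrX-KO replicate 1 was left out, and not when any of the other 7 libraries was (highest limma adjusted p = 0.0997, without chrX-KO replicate 4), so that without chrX-ctrl replicate 3 the values were -1.04 and 0.085. Exons of ZNF649 overlap those of ZNF577 on the same strand and ZNF649-AS1 on the other, and reads may be shared. ZNF577 itself averaged 202 ± 27.3 in chrX-KO and 204 ± 72.5 in chrX-ctrl.

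The other genes whose groups did not overlap missed limma's threshold. ZNF391 (chr6:27374615-27403904, plus strand) had 179, 183, 126, 108 and 111 in chrX-KO, against 404, 317, 279.9 and 220.4 in chrX-ctrl. Its log2 fold change of -1.11 (SE 0.24, limma adjusted p = 0.104) was as large as that of ZNF649 with a wider spread. ZNF525 (chr19:53365693-53392217, plus strand) had 297, 339, 350.5, 255 and 243 in chrX-KO, against 491, 632, 471 and 526 in chrX-ctrl, a log2 fold change of -0.84 (SE 0.16, limma adjusted p = 0.067). The lowest chrX-ctrl library stood well above the highest chrX-KO library. ZNF90 (chr19:20077994-20127076, plus strand), the most abundant of the 12, had 759, 863, 615, 710.0 and 699 in chrX-KO, against 1464, 1151, 1062 and 1259 in chrX-ctrl. This was a log2 fold change of -0.76 (SE 0.15, limma adjusted p = 0.068), and its sign was the same in all alternatives run. Annotated noncoding genes overlap the exons of ZNF525 on the same strand and of ZNF90 on both.

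Differences were smaller in 4 further genes. ZNF134 (chr19:57614233-57624723, plus strand) had 224, 225, 297, 238 and 266 in chrX-KO, against 339, 395, 480.4 and 319 in chrX-ctrl (-0.60, SE 0.16, limma adjusted p = 0.206). ZNF682 (chr19:19997058-20039506, minus strand) had 182, 214, 148, 174 and 175 in chrX-KO, against 244, 299.9, 231 and 272 in chrX-ctrl (-0.55, SE 0.15, limma adjusted p = 0.216). In both, the groups were separated by a narrow gap. ZNF680 (chr7:64519884-64563106, minus strand) had 544, 655, 587, 611 and 586 in chrX-KO, against 979, 903, 742 and 792 in chrX-ctrl (-0.51, SE 0.13, limma adjusted p = 0.174). ZNF616 (chr19:52113091-52139922, minus strand) had 199, 185, 239.9, 177 and 223 in chrX-KO, against 272, 256, 345 and 276 in chrX-ctrl (-0.49, SE 0.15, limma adjusted p = 0.311), and the authors' deposited table did not call it. ZNF429, outside the rule for named genes and given because it completes the 9, averaged 223 ± 15.7 in chrX-KO and 258 ± 5.34 in chrX-ctrl, with only a few counts between the nearest libraries. Exons of ZNF616 overlap another annotated gene on the same strand, and those of ZNF429 on both strands.

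Higher in chrX-KO without overlap were ZNF562, ZNF280D and ZNF573, none of them past limma's threshold. ZNF280D (chr15:56630181-56734086, minus strand) had 414, 397, 368, 380.4 and 359 in chrX-KO, against 248, 261, 275 and 221 in chrX-ctrl. Both groups were tight, with a log2 fold change of 0.61 (SE 0.12, limma adjusted p = 0.080). ZNF280D passed with DESeq2 (adjusted p = 2.57e-05), with edgeR's quasi-likelihood test (adjusted p = 0.028), with TMM factors (limma adjusted p = 0.032) and with quantile normalization (limma adjusted p = 0.023). ZNF562 (chr19:9641808-9675086, minus strand) had 402, 507, 481, 397 and 327 in chrX-KO, against 286, 186, 302 and 222 in chrX-ctrl (0.77, SE 0.19, limma adjusted p = 0.174). It passed with equal protein-coding totals (0.97, limma adjusted p = 0.045) and with DESeq2 (adjusted p = 0.0075). ZNF573 (chr19:37735833-37817300, minus strand) had 472, 493, 562, 527 and 641 in chrX-KO, against 421, 315, 426 and 402 in chrX-ctrl (0.46, SE 0.15, limma adjusted p = 0.325). Other annotated genes overlap the exons of ZNF280D on the same strand and of ZNF562 and ZNF573 on the opposite strand, and reads may be shared. The plot of single libraries shows the 12 genes side by side.

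Without chrX-ctrl replicate 3, log2 fold changes of the lower genes were -1.14 for ZNF391, -0.89 for ZNF525, -0.83 for ZNF90, -0.61 for ZNF682, -0.58 for ZNF680, -0.49 for ZNF134 and -0.40 for ZNF616. Those of the higher genes were 0.87 for ZNF562, 0.66 for ZNF280D and 0.51 for ZNF573. None of these passed limma's threshold in that fit, and all kept their direction.

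**Figure D3:**
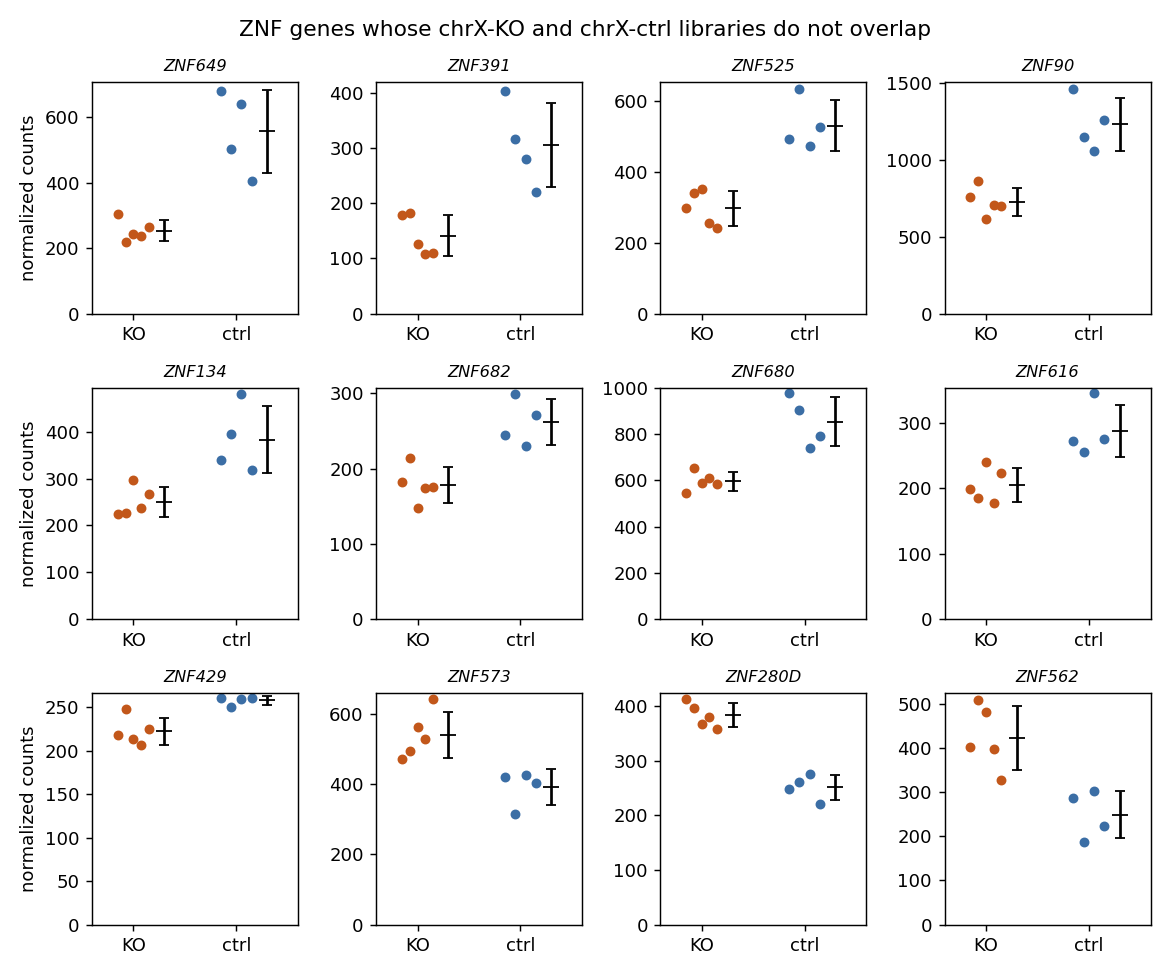
Normalized counts on the y axis, from 0, for the 12 ZNF genes whose chrX-KO and chrX-ctrl libraries do not overlap; points are libraries in replicate order, and the line with bars gives mean and SD (n = 5 and 4). ZNF649 and ZNF391 have the most negative log2 fold changes of the 9 lower genes, both -1.11, and ZNF280D, ZNF562 and ZNF573 are higher in chrX-KO.

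In the authors' deposited table, log2 fold changes ran from -1.14 for ZNF649 and -1.12 for ZNF391 to 0.61 for ZNF280D and 0.76 for ZNF562 among the 10 genes called. The deposited values of the other 6 were -0.84 for ZNF525, -0.79 for ZNF398, -0.76 for ZNF90, -0.62 for ZNF134, -0.55 for ZNF682 and -0.52 for ZNF680. ZNF398 is the only one of the 10 called in the authors' deposited table whose groups overlap.

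Promoter sequences of 4 of these genes are shown because ZNF90 and ZNF680, on different chromosomes and both lower in chrX-KO without overlap, have similar ones, while ZNF525 (lower) and ZNF562 (higher) serve for contrast. They come from RefSeq promoters on GRCh38.p14, start 200 bases before the annotated gene start and stop short of any GENCODE 29 exon of the gene. ZNF90 is chr19:20077800-20077993 (plus strand), ZNF680 chr7:64563107-64563271 (minus strand), ZNF525 chr19:53365505-53365692 (plus strand) and ZNF562 chr19:9675101-9675300 (minus strand). Capitals mark matches, on either strand, to the letters CCAAT, which form the box of that name. They also mark matches to GGGCGG, called the GC box.
ZNF90: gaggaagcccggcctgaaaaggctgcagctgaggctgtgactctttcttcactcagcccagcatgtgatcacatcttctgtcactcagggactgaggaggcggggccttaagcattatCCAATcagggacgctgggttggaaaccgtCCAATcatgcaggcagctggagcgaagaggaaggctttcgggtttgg
ZNF680: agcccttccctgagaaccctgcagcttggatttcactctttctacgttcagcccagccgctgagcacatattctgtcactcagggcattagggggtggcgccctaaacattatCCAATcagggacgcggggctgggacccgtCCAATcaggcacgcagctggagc
ZNF525: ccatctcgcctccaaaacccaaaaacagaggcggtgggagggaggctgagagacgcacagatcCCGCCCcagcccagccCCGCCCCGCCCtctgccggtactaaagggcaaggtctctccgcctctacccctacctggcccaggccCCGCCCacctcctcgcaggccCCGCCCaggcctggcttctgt
ZNF562: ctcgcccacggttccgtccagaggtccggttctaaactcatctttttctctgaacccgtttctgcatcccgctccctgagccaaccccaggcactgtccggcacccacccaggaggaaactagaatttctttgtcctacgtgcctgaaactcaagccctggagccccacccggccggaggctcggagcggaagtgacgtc

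ZNF90 and ZNF680 each held 2 CCAAT boxes and no GC box, ZNF525 held 5 GC boxes, a pair of which share a base, and ZNF562 held neither. In a global alignment of the 200-base windows of 7 genes called in the deposited table, without overlap and with 1 annotated start, ZNF90 and ZNF680 were 76.6% identical. The other 20 pairs of these windows lay between 46% and 54.2%. The 7 genes were chosen on their differences in these data, and windows of other ZNF genes, cluster neighbours included, were not aligned. Whether genes that did not differ between the groups share this likeness was not tested. Over all annotated starts, 155 of the 169 genes had an entry, with 206 windows that take the 200 bases before a start. A CCAAT box stood in 36.4% of the ZNF windows and 28% of all 35116 windows, and a GC box in 58.7% and 40.1%. The TATA box, searched as TATAAA, stood in 1.94% of ZNF windows and 8.59% of all windows. The E-box, searched as CACGTG, stood in 4.85% of ZNF windows and 5.49% of all windows, again on either strand. ZNF windows had a median GC content of 62.5% with 15 CpG, against 59% with 9 CpG in all windows. A match describes letters and not bound sites.

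By position, 81 of the 169 genes (47.9%) lie on chromosome 19, with a median log2 fold change of -0.09, and 88 lie elsewhere, with a median of -0.04. Without chrX-ctrl replicate 3 these were -0.04 and 0.04. A KRAB-like amino acid pattern was found in the translated GENCODE 29 transcripts of 100 genes (59.2%), 68 of them on chromosome 19. Genes with the pattern had a median of -0.07, with 64 negative and 36 positive, and genes without it had a median of -0.03, with 39 negative and 30 positive. Without chrX-ctrl replicate 3 these medians were -0.05 and 0.07. Groups that did not overlap were counted for 7 lower and 2 higher genes with the pattern (9% of 100) and for 2 lower and 1 higher without it (4.35% of 69), beside 3.95% of all tested rows and 2.86% of other coding genes. The difference between these shares was not tested. The number of C2H2 patterns, from 0 to 33 a protein, gave 3 groups, with medians of -0.06 for genes with at most 8, -0.11 for genes with 9 to 12 and -0.03 for genes with 13 or more, which became 0.04, -0.05 and 0.00 without chrX-ctrl replicate 3. By level, the medians were -0.04, -0.09 and -0.05 from the genes of lowest mean to those of highest mean, in 3 groups. With equal protein-coding totals the medians of genes with and without the KRAB pattern became 0.13 and 0.18.

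ZNF genes within 500000 bases of each other were joined into clusters of at least 5 genes. The chromosome 19 cluster from 51.6 to 53.6 Mb, which holds ZNF649, ZNF616 and ZNF525, had the lowest median of the clusters with at least 7 of the 169 genes. Its 15 well-expressed genes had a median of -0.28, 10 of them negative, and its 38 tested ZNF genes of any level had a median of -0.40. The authors' deposited table called 7 of these 38 lower (18.4%, beside 1.53% of its rows and 1.79% of other coding genes) and 0 higher. With equal protein-coding totals, where the median of all rows was 0.21, the medians were -0.07 and -0.20, and leaving out single libraries gave -0.33 to -0.23 and -0.41 to -0.30, with -0.23 and -0.30 without chrX-ctrl replicate 3. The other 5 had positive fold changes, among them ZNF160, which averaged 729 ± 53.7 in chrX-KO and 632 ± 62.8 in chrX-ctrl and was picked after its values were seen. Related copies in a cluster can share reads, and no source used here says how the authors' counting divided such reads.

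The cluster from 19.7 to 24.1 Mb, which holds ZNF90, ZNF682, ZNF91 and ZNF93, had a median of -0.13 over its 25 well-expressed genes, 20 of them negative. The median was 0.07 with equal protein-coding totals and -0.16 without chrX-ctrl replicate 3. The groups did not overlap for 3 of these 25 genes, ZNF90, ZNF682 and ZNF429. This stands beside 7.1% of the 169 genes, 3.95% of all tested rows and 2.86% of other coding genes. The 12 genes from 57.2 to 58.5 Mb, among them ZNF134, ZNF417 and ZNF587, had a median of 0.00, and 0.04 without that library. The 8 genes from 36.2 to 37.8 Mb had a median of 0.07 and the 7 genes from 8.5 to 9.8 Mb, with ZNF562, had a median of -0.14. No test was made of a cluster, and the map of chromosome 19 shows the single genes.

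**Figure D4:**
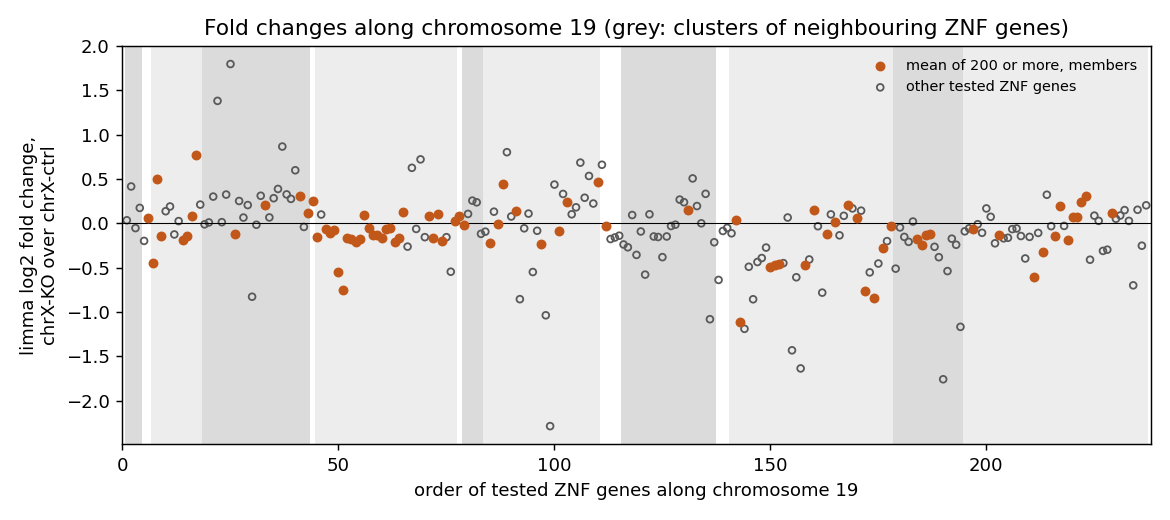
Limma log2 fold changes, chrX-KO over chrX-ctrl, on the y axis for tested ZNF genes in their order along chromosome 19 on the x axis; filled points are the 81 genes with a mean of at least 200, open points are other tested ZNF genes, and grey bands in 2 shades are clusters of at least 5 neighbouring genes. The band from 51.6 to 53.6 Mb, with ZNF649 and ZNF525, has a median of -0.28 over its 15 filled points.

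Among genes with known roles, KRAB zinc fingers known to bind transposons numbered 6. Limma called 1 of them lower (ZNF649) and 0 higher, beside 0.54% of all tested rows called. At an unadjusted limma p under 0.05 stood 2, both lower (ZNF649 and ZNF808), beside 8.63% of all rows. The list was made with earlier results known, and 6 genes are too few to set such shares apart. The median of the 6 was 0.00, and -0.03 without chrX-ctrl replicate 3. ZNF91, which represses SVA elements, averaged 677 ± 44.5 in chrX-KO and 636 ± 114 in chrX-ctrl. ZNF93, which represses LINE-1 elements, averaged 823 ± 64.9 in chrX-KO and 866 ± 83.7 in chrX-ctrl. The groups of both genes overlapped. ZNF417, which with its close copy ZNF587 represses HERVK elements, averaged 341 ± 77.4 in chrX-KO and 288 ± 64.1 in chrX-ctrl. ZNF587 averaged 337 ± 46.0 in chrX-KO and 317 ± 9.68 in chrX-ctrl, and reads of such close copies may be split between them. ZNF808, which represses MER11 elements, had 245, 195, 183, 155 and 172 in chrX-KO, against 299.6, 249, 269.8 and 227 in chrX-ctrl (-0.46, SE 0.17, limma adjusted p = 0.419). Its groups overlapped through chrX-KO replicate 1 and chrX-ctrl replicate 4.

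Genes of chromatin and corepressor complexes numbered 10, with 0 called by limma and a median of -0.02, or 0.07 without chrX-ctrl replicate 3. At an unadjusted limma p under 0.05 stood 1 (ZNF827, lower), beside 8.63% of all tested rows. ZNF827, which brings the NuRD complex to telomeres, had 509, 488, 694, 629 and 786 in chrX-KO, against 1193, 792, 1330.0 and 735 in chrX-ctrl (-0.68, SE 0.23, limma adjusted p = 0.365). The groups overlapped, with chrX-ctrl replicates 1 and 3 high, and the fold change was -0.53 without replicate 3. ZNF644, a partner of the G9a and GLP histone methyltransferases, averaged 1150.4 ± 121 in chrX-KO and 1155 ± 145 in chrX-ctrl. ZNF217, a partner of CtBP and LSD1, averaged 698 ± 79.2 in chrX-KO and 741 ± 199 in chrX-ctrl. ZNF410, known for controlling CHD4, averaged 264 ± 16.7 in chrX-KO and 235 ± 19.1 in chrX-ctrl, and ZNF462 averaged 879.7 ± 109 in chrX-KO and 983 ± 198 in chrX-ctrl. ZNF518A averaged 661 ± 48.1 in chrX-KO and 595 ± 88.9 in chrX-ctrl, ZNF687 averaged 267 ± 34.6 in chrX-KO and 294 ± 88.7 in chrX-ctrl, and ZNF219 averaged 929.6 ± 149.8 in chrX-KO and 898 ± 237 in chrX-ctrl. ZNF638 and ZNF532, described above, complete the 10.

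Of 5 zinc fingers linked to pluripotency, 0 were called by limma and 1, ZNF398, by the authors' deposited table. That table called 2.05% of its rows with an adjusted p and 2.1% of other coding genes. A list of 5 genes is too short to set its share apart from these. The median of the 5 was -0.07, and 0.10 without chrX-ctrl replicate 3. ZNF398 maintains pluripotency and the epithelial state of human pluripotent cells downstream of SMAD3. It had 241, 286, 293, 191 and 224 in chrX-KO, against 496, 398, 529 and 279 in chrX-ctrl (-0.76, SE 0.22, limma adjusted p = 0.253). The overlap rests on chrX-ctrl replicate 4, which was lower than chrX-KO replicates 2 and 3. Without chrX-ctrl replicate 3, the highest library, the fold change was -0.64 (limma adjusted p = 0.483). ZNF281, a repressor linked to pluripotency in mouse cells, averaged 534 ± 72.6 in chrX-KO and 597 ± 204 in chrX-ctrl. ZNF322 averaged 467 ± 42.1 in chrX-KO and 413 ± 75.4 in chrX-ctrl, and ZNF589 averaged 725 ± 42.2 in chrX-KO and 761 ± 64.5 in chrX-ctrl.

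Promoter and signalling factors numbered 6, with 0 called and a median of -0.07, or 0.07 without chrX-ctrl replicate 3. ZNF143, a promoter-binding activator, averaged 543 ± 54.9 in chrX-KO and 651 ± 109 in chrX-ctrl. ZNF423, a partner of SMADs in BMP signalling, had 251, 236, 352, 283 and 324 in chrX-KO, against 115, 258, 572 and 220.4 in chrX-ctrl. Its chrX-ctrl libraries spread more widely than the means of the groups differed. ZNF148 averaged 305 ± 40.2 in chrX-KO and 271 ± 48.2 in chrX-ctrl, ZNF384 averaged 385 ± 18.0 in chrX-KO and 389.5 ± 103 in chrX-ctrl, ZNF24 averaged 475 ± 86.1 in chrX-KO and 559.7 ± 159.8 in chrX-ctrl, and ZNF131 averaged 421 ± 55.8 in chrX-KO and 466 ± 62.5 in chrX-ctrl.

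Of 6 genes that act on RNA or ribosomes, 0 were called and 5 had negative fold changes, with a median of -0.14, or -0.03 without chrX-ctrl replicate 3. ZNF598, the ubiquitin ligase that detects collided ribosomes, averaged 235 ± 23.3 in chrX-KO and 285 ± 88.6 in chrX-ctrl. ZNF593, a ribosome assembly factor known from budding yeast, averaged 288 ± 77.3 in chrX-KO and 414 ± 147 in chrX-ctrl. ZNF346, which binds double-stranded RNA, averaged 256 ± 15.5 in chrX-KO and 213 ± 23.1 in chrX-ctrl. ZNF326, of a complex that couples splicing to transcription, averaged 406 ± 48.6 in chrX-KO and 407 ± 38.8 in chrX-ctrl. ZNF106 averaged 330.2 ± 37.6 in chrX-KO and 410.3 ± 51.1 in chrX-ctrl, and ZNF330 averaged 598 ± 139 in chrX-KO and 611 ± 87.7 in chrX-ctrl.

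Of 25 tested genes of the corepressor machinery of KRAB proteins, 0 were called by limma, 0 by the authors' deposited table and 0 had an unadjusted limma p under 0.05, with a median of -0.04. In 1 of the 25 (4%) the groups did not overlap, beside 3.95% of all tested rows and 2.86% of other coding genes. This gene, RIF1, averaged 1044 ± 81.3 in chrX-KO and 1193 ± 84.8 in chrX-ctrl (limma adjusted p = 0.716). TRIM28, the corepressor that KRAB domains bind, averaged 9508 ± 1508 in chrX-KO and 13263 ± 6912 in chrX-ctrl (10243 ± 4114 without replicate 3), and SETDB1, the histone methyltransferase it recruits, averaged 532 ± 36.9 in chrX-KO and 488 ± 59.2 in chrX-ctrl. Related zinc finger families with a mean of at least 200 had 0 limma calls. Their 18 genes are too few to set this apart from the 0.54% of all tested rows. The median was -0.03 for 7 ZSCAN and ZKSCAN genes, 0.02 for 5 ZFP genes and 0.00 for 6 ZBTB genes. In 1 of the 6 ZBTB genes the groups did not overlap, beside 3.95% of all tested rows and 2.86% of other coding genes. The authors' deposited table called 1 of these 18 genes lower, beside 2.05% of all its rows called. This was ZBTB3, which is named because its value was seen. Among 296 tested ZNF genes with a mean under 200, counted without the left-out ZNF717, ZNF667 and ZNF439, limma called 4 lower (ZNF300, ZNF585B, ZNF578 and ZNF880, named after their values were seen) and 0 higher, and the authors' deposited table called 11 lower and 3 higher, with a median of -0.04. These were 1.35% by limma and 4.73% by the authors' deposited table, beside 0.54% and 2.05% of all rows. With the left-out 3 counted, limma called 6 of 299 lower and 1 higher, and the authors' deposited table called 13 lower and 4 higher.

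The 4 genes left out of the choice stood apart from the 169 in their values, which are given as a description. ZNF717 averaged 5.76 ± 1.76 in chrX-KO and 206 ± 36.1 in chrX-ctrl, and ZNF667 averaged 68.7 ± 8.46 in chrX-KO and 237 ± 44.5 in chrX-ctrl. ZNF439 averaged 86.7 ± 11.1 in chrX-KO and 25.2 ± 8.28 in chrX-ctrl, and ZNF521 averaged 263 ± 54.4 in chrX-KO and 127 ± 19.7 in chrX-ctrl. In none of these 4 did the libraries of the groups overlap.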

How the data were processed

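Per the labels' protocols, RNA came from Direct-zol columns with DNase and entered a stranded total RNA kit. Per the submitters' processing notes, the tools were fastp, kallisto and DESeq2 and the build hg38; no source used here states versions, annotation release or strand setting. The deposited table gives each library a signal column, in which the authors scaled gene counts by a size factor (normalized counts). It also gives the authors' mean signal, log2 fold change, p-value, adjusted p-value and test score. Within a tolerance of 1e-06, 100% of the deposited signal values were whole multiples of the smallest positive value of their library. Division by it gave whole numbers, which are called recovered reads here. Columns of per-sample values left unused numbered 0.

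The test was limma (3.58.1, R 4.3.3) on log2(value + 1), trend option on, group as only term, all 9 libraries. P-values were Benjamini-Hochberg adjusted over the 27777 rows kept by filterByExpr at a minimum count of 10, with a threshold of 0.05. The added 1 makes fold changes of low genes too small. edgeR's quasi-likelihood test (4.0.16) on the recovered reads called 151 rows, and DESeq2 (1.42.0) was another alternative. The other alternatives were pseudocounts of 0.5 and 5, no filter, TMM factors, quantile normalization, equal protein-coding totals and the replicate number as a block. Further alternatives left out single libraries, used means of 100 or 500 in place of 200, or kept the 4 left-out genes whatever their mean. The script was tested on simulated data.

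The genes, gene lists and tests were chosen with earlier results of these data known. Named are the genes called by limma or in the deposited table, the 8 most negative and 8 most positive fold changes without overlap between groups, the 6 highest means, 2 genes on each side of the level of 200, the 4 left-out genes, and members of the role lists. The replicate number is also given under a batch tag in the labels, which was read as pairing same-numbered libraries of both groups. Over rows, deviations of paired libraries from their group means had a Pearson correlation of 0.07 (replicate 1), 0.02 (replicate 2), 0.25 (replicate 3) and 0.33 (replicate 4), and chrX-KO replicate 5 has no partner.

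Positions, exon lengths and overlaps came from GENCODE 29, in which all 169 genes were found, and exons of 56 overlap another gene on the same strand and of 57 on the other. C2H2 and KRAB patterns were searched in translated GENCODE 29 transcripts, in place of the RefSeq proteins first planned. Such patterns can miss a domain or match by chance.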

Additional observations from a re-analysis of the deposited data

Results flagged for a closer look

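Of 100 groups of libraries examined for the named genes and the summed level, 2 held a library far from the others of its group, where chance gives about 1 in 20. ZNF384 had 416 normalized counts in chrX-KO replicate 3, against 372 to 385 in the other chrX-KO libraries. ZNF131 had 559.7 in chrX-ctrl replicate 3, against 427 to 439.7 in the other chrX-ctrl libraries (435 ± 6.97 without it, SD, n = 3), and in that library protein-coding rows took 50.8% of reads; the part of that share in the value was not tested.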

How the results depend on the processing

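The count of ZNF genes called was 1 in the test as reported. It was 2 with edgeR, TMM factors or quantile normalization, 9 with DESeq2 and 0 with the replicate number as a block. It was 3 with a mean of at least 100 and 0 with a mean of at least 500. With single libraries left out it was 0 to 1. It was 4 with all 4 left-out genes kept whatever their mean. The added calls were ZNF717, ZNF667 and ZNF439, whose means of 95, 143 and 59.4 lie under the level used for the choice. Only ZNF521, with a mean of 203, reaches that level, and it was not called (limma adjusted p = 0.059). Over all tested rows, 150 calls became 151 with edgeR, 155 with TMM factors and 135 with quantile normalization. They became 593 with DESeq2 and 43 with the replicate block, and 79 to 186 with single libraries left out. The ZNF median of -0.06 became 0.052 under quantile normalization and 0.14 with equal protein-coding totals, and -0.13 to 0.01 with single libraries left out. Under the block ZNF649 was not called (limma adjusted p = 0.090); chrX-KO replicate 5 has no partner there, and leaving it out alone also ended the call (limma adjusted p = 0.0886). No named gene with a printed fold change turned its sign in any alternative. Of 252 recomputed fold changes of 14 single genes, 231 kept their direction and their side of the threshold, 12 newly passed it and 9, all of ZNF649, no longer did. Of 144 recomputed medians of gene groups, 135 moved by less than 0.107 and 9 by more. That value is the pooled SD between libraries of the median deviation of the whole ZNF set. The spread of each gene group was not used. The causes were not tested.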
